A study of Rattus norvegicus with 17 samples.

Results

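The transcripts described here encode the motor proteins of axonal transport: kinesins, cytoplasmic dynein and dynein's partner dynactin. They were taken as the array's probe sets, the groups of short probes that each read 1 transcript, with a single gene symbol that begins with Kif or Klc and a digit, or with Dync, Dynl or Dctn. The kinesins Kif2c, Kif4a, Kif11, Kif15, Kif20a, Kif20b, Kif22 and Kif23, which serve cell division, were left out. The rule used no measured value, though the members were chosen with earlier results of these data known. It gave 73 of the 31099 probe sets, for 45 of the 14218 genes with such a probe set. Of these, 53 probe sets of 39 genes were bright enough to be tested and 20 were too dim.

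Rat spinal cord neurons that had taken up a retrograde tracer were laser captured from 10 µm sections of unfixed cord, 1000 cells for each sample, and their RNA was amplified in repeated rounds before hybridisation to 17 arrays. Regenerating neurons and Non-regenerating neurons both came from the same 7 axotomised rats, 5 with a name in MM (MM11, MM13, MM14, MM16 and MM17) and 2 with a name in MOON (MOON265 and MOON266). Traced neurons came from 3 other rats that were not axotomised, MM15, MM18 and MM19, and the label of MM15 calls it a high yield replicate. The lesion, strain, sex, age, time after axotomy and any treatment that the animals shared are not given in the sources used here, nor is what MM and MOON stand for, so both are used only as name prefixes. Each array is 1 sample of 1 named rat, and tests measure the spread between such samples. Where captured cells are pooled, fewer cells of a type and less RNA per cell cannot be told apart.

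Kinesins and cytoplasmic dynein walk along the microtubules of the axon. Most kinesins move cargo outward to the tip: kinesin-1, with heavy chains Kif5a, Kif5b and Kif5c and cargo-binding light chains Klc, carries mitochondria and vesicles, and kinesin-3 carries synaptic vesicle precursors and other vesicles. Dynein, with dynactin, carries endosomes and injury signals back to the cell body.

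Sequence was available for 37 of the 45 genes, from RefSeq windows on the build GRCr8 that run from 250 bases before to 50 bases after each gene's start. The cyclic AMP response element TGACGTCA, which is its own reverse complement and a known binding motif of CREB, was searched because it marks many genes that respond to cyclic AMP and neuronal activity. It was found in the windows of Kif5c, Klc1 and Kif18a, 3 of 37 genes (8.11%), against 549 of all 27457 genes with a window (2%). The 250 bases before the start are shown for Kif5c and Klc1, a heavy and a light chain of kinesin-1, because they share the element and Kif5c varied most between animals. Capitals mark the element, 5′ to 3′ on the plus strand, which begins 42 bases before the start in Kif5c (chr3:54441057-54441306) and 75 bases before the first of 3 Klc1 starts (chr6:136644350-136644599). The other 2 Klc1 starts lie 89 and 98 bases past the beginning of the same element.
Kif5c: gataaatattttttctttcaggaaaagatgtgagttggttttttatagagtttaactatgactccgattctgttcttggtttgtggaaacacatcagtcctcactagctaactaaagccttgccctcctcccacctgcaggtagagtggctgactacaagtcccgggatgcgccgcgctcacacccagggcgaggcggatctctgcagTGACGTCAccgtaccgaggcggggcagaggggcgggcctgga
Klc1: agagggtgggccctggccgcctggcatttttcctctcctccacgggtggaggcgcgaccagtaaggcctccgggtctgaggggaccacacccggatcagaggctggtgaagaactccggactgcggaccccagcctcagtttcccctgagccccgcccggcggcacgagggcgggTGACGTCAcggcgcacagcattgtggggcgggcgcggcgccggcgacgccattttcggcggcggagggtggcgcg
Of the other motifs searched on both strands, the GC box GGGCGG was in 25 of 37 genes (67.6%) against 36% of all genes, and the AP-1 site TGACTCA was in Kif21a and Klc4 (5.41% against 5.04%). TATAAA was in 4 genes (10.8% against 15.3%) and CACGTG in Dctn4 and Dynlt2b (5.41% against 7.08%). A match is a description of these letters and was not tied to the measurements by any test.

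The labelled cell type was checked first. All 10 general neuron markers were above the filter, and their summed signal ran from 14851 to 44812 over the arrays. Motor neuron markers summed to 4517 to 10413 on Regenerating arrays, 3081 to 5450 on Non-regenerating arrays and 2351 to 3917 on Traced arrays. The median log2 fold change of the 9 markers was 1.15 for Regenerating against Non-regenerating, with 1 passing, and 1.21 with 0 passing for Regenerating against Traced. The part of this difference between the captured neurons in the motor comparisons was not tested. Signals of astrocyte markers (14551 to 27128) and oligodendrocyte markers (9938 to 19634) were present on every array, and no marker was at 0 on all arrays. Against Traced, median log2 fold changes in Non-regenerating and Regenerating neurons were 0.31 and 0.36 (astrocyte), 0.01 and -0.01 (oligodendrocyte) and -0.55 and -0.73 (endothelial). Of the astrocyte markers, 1 passed for Regenerating against Traced, and 0 of the other 2 lists passed. Summed microglia and macrophage markers were 3472 to 6780 on Regenerating, 3528 to 6068 on Non-regenerating and 2034 to 2319 on Traced arrays, so these groups did not overlap with the Traced group, and 8 of the 12 markers were bright enough to test. Of those, 1 passed for Non-regenerating and 3 for Regenerating against Traced. The part of any of these cell types in the comparisons with Traced neurons was not tested. The arrays of Non-regenerating MM17 and Traced MM15 stood apart: their median correlations with the other arrays were 0.893 and 0.877, against at least 0.929 elsewhere. Their log2 ratios of 3 prime to 5 prime Gapdh signal were 3.32 and 3.55, against 4.37 to 7.23 elsewhere. In the comparison within rats, leaving out MM17 turned the sign of 10 of 53 motor log2 fold changes (18.9%, against 17.5% of all) and moved another 28 by over 1.5 times (52.8%, against 44%). In Non-regenerating against Traced, leaving out both arrays turned 12 (22.6%, against 14.3%) and moved another 22 (41.5%, against 36.2%). Of the 2 arrays, Regenerating against Traced holds only Traced MM15. Leaving it out turned 16 (30.2%, against 17.7%) and moved another 25 (47.2%, against 39.6%). Many motor values below are therefore also given without these arrays. For Regenerating against Traced, such values leave out MM15 alone, and the Traced group is then MM18 and MM19.

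The first question was whether motor transcripts differed between neurons that regenerated and neurons of the same rat that did not. None of the 53 tested motor probe sets passed an adjusted p of 0.05 by limma with the animal as a block, where 3 of all 18625 probe sets did (0.0161%). At an unadjusted p under 0.05 there was 1 motor probe set (1.89%), against 7.08% of all. The log2 fold change was above 0 in 27 of 53 (50.9%, against 49.8% of all), with a median of 0.00 (0.00 over all probe sets). The 95% interval lay within a 2-fold change both ways for 52 of 53 motor probe sets (98.1%), the same share as over all probe sets (98.1%). No motor probe set was higher or lower in the Regenerating sample of every rat, where 1.12% of all were higher and 0.966% lower. Outside the 2-fold bounds was the Kif13a probe set 1390319_at, with a log2 fold change of -0.54 and a 95% interval from -1.22 to 0.14, which came to -0.20 (SE 0.26) without rat MM17.

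**Figure D1:**
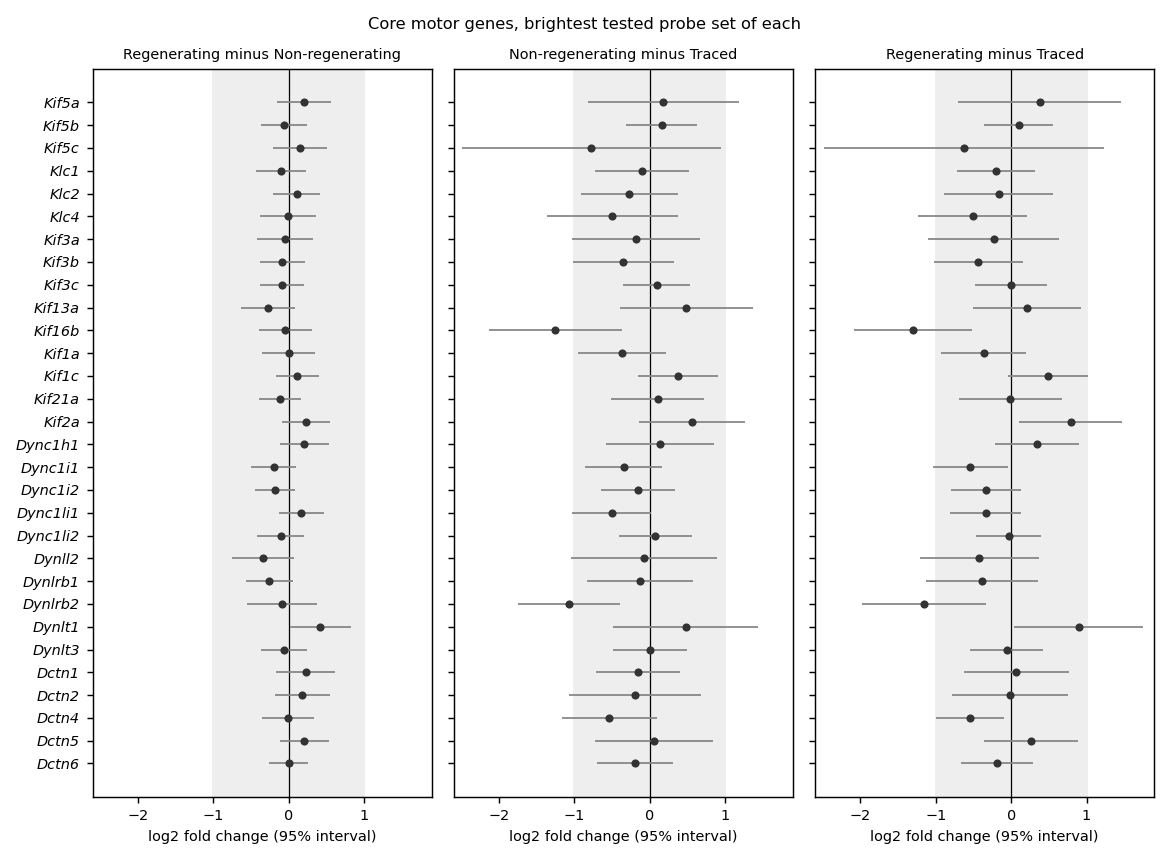
Log2 fold change (x axis) of 30 core motor genes at their brightest tested probe set (rows), in the 3 comparisons, with limma's 95% interval as a line; the shaded band is a 2-fold change both ways. Intervals are narrow in the left panel, where each rat is its own control, and wide in the panels against the 3 Traced arrays, where Kif16b and Dynlrb2 lie farthest to the left.

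Among the kinesin-1 heavy chains, Kif5a, a neuron-enriched form, had signals of 91.0 to 603 (median 444) on Regenerating arrays and 124 to 628 (median 305) on Non-regenerating arrays, at its brightest probe set. It was higher in the Regenerating sample of 5 of 7 rats, the groups overlapped, and the log2 fold change was 0.20 (SE 0.17, 95% interval -0.16 to 0.56, adjusted p = 0.787 by limma). A second probe set, 1375875_at, gave 0.42 (SE 0.23, adjusted p = 0.706 by limma). Without rat MM17 they were 0.08 and 0.55. Kif5b, the form made in most cell types, ranged from 826 to 1409 (median 1109) on Regenerating arrays and from 867 to 1393 (median 1117) on Non-regenerating arrays. The groups overlapped, with a log2 fold change of -0.06 (95% interval -0.37 to 0.25), or -0.18 without rat MM17. For Kif5c, a neuronal form, the log2 fold change was 0.15 (95% interval -0.20 to 0.51), and its other 2 tested probe sets gave 0.17 and -0.30. Without rat MM17 these were 0.25, -0.12 and -0.17.

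The light chains link kinesin-1 to its cargo, and none of them passed. Klc1 had 2251 to 3761 (median 2965) on Regenerating and 2063 to 4766 (median 3254) on Non-regenerating arrays, and the log2 fold change was -0.10 (95% interval -0.43 to 0.23). Klc2 gave 0.11 (95% interval -0.21 to 0.42) and Klc4 gave -0.01 (95% interval -0.38 to 0.37). Without rat MM17, Klc1, Klc2 and Klc4 gave -0.01, 0.17 and 0.09. Among the kinesin-2 subunits, which form a motor of vesicles and of cilia, Kif3a gave -0.05 (95% interval -0.43 to 0.32), Kif3b gave -0.08 (95% interval -0.38 to 0.22) and Kif3c gave -0.09 (95% interval -0.38 to 0.20). Without rat MM17 they gave 0.06, 0.03 and -0.01.

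Of the kinesin-3 motors, Kif1a gave 0.00 (95% interval -0.35 to 0.35) and Kif1c gave 0.11 (95% interval -0.17 to 0.40), or 0.09 and 0.05 without rat MM17. Kif2a, a kinesin that shortens microtubules rather than carrying cargo, ranged from 753 to 1910 (median 854) on Regenerating arrays and from 456 to 1459 (median 783) on Non-regenerating arrays. It was higher in the Regenerating sample of 6 of 7 rats, with a log2 fold change of 0.23 (SE 0.15, 95% interval -0.09 to 0.55, adjusted p = 0.733 by limma). Without rat MM17, whose Non-regenerating array stood apart, this was 0.10. Kif21a, a kinesin that pauses microtubule growth, gave -0.11 (95% interval -0.39 to 0.17), or -0.19 without rat MM17.

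For dynein, the heavy chain Dync1h1, which holds the motor domain, had signals of 856 to 1376 (median 1218) on Regenerating arrays and 469 to 1474 (median 1088) on Non-regenerating arrays. The groups overlapped and the log2 fold change was 0.21 (95% interval -0.12 to 0.54), which came to 0.05 without rat MM17. The intermediate chains, which bind dynactin, gave -0.20 (Dync1i1, 95% interval -0.49 to 0.10) and -0.18 (Dync1i2, 95% interval -0.44 to 0.09). Dync1i2 was higher in the Regenerating sample of 1 rat of 7, and without rat MM17 the chains gave -0.10 and -0.12. The light intermediate chains Dync1li1 and Dync1li2, which bind cargo adaptors, gave 0.17 and -0.11.

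The light chain Dynlt1, which binds cargo, was the motor gene with the smallest p in this comparison. Its signals were 145 to 250 (median 215) on Regenerating arrays and 60.2 to 221 (median 164) on Non-regenerating arrays. It was higher in the Regenerating sample of 5 of 7 rats, and the groups overlapped. The log2 fold change was 0.42 (SE 0.19, 95% interval 0.02 to 0.82, adjusted p = 0.697 by limma), and it did not pass. The change was 1.63 in rat MM13, whose Non-regenerating array held the lowest value, and between -0.20 and 0.56 in the other 6 rats. Dynll2, another light chain, gave -0.34 and 0.18 at its 2 probe sets, and Dynlrb1 gave -0.26 (95% interval -0.57 to 0.05). Without rat MM17, Dynll2 gave -0.19 and 0.15 and Dynlrb1 gave -0.18.

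The dynactin subunits overlapped too. Dctn1, the large subunit that binds dynein and the microtubule, gave 0.23 (95% interval -0.17 to 0.62). Dctn2, Dctn4, Dctn5 and Dctn6 gave 0.18, -0.01, 0.21 and 0.00. Without rat MM17, Dctn1 gave 0.40 and the other 4 gave 0.10, 0.12, 0.06 and 0.07. The dynein-2 chains Dync2h1, Dync2i1 and Dync2li1, which serve cilia, gave 0.10, 0.05 and 0.17, or -0.02, 0.01 and 0.11 without it.

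**Figure D2:**
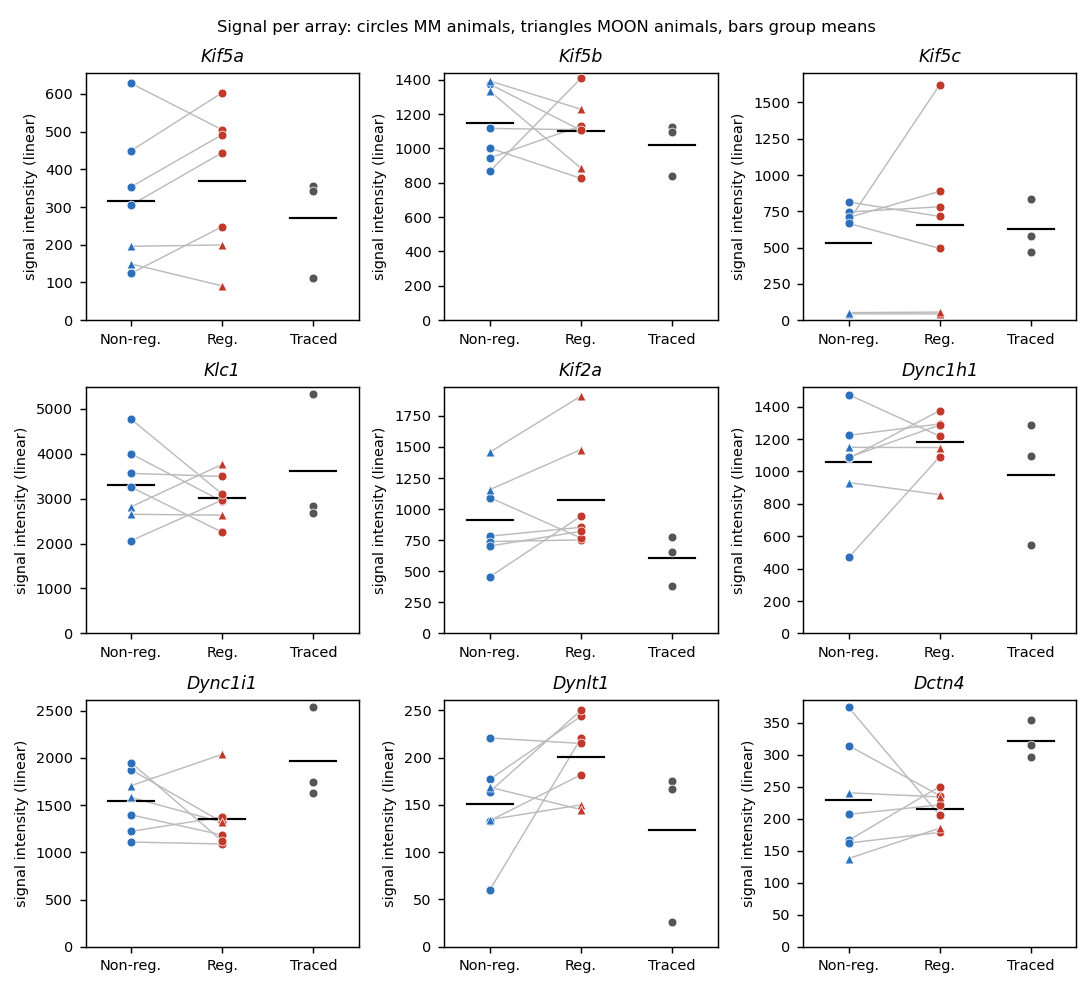
Deposited signal intensity (linear y axis from 0) on each array for 9 motor genes at their brightest tested probe set, by group (x axis: Non-regenerating, Regenerating, Traced). Circles are MM rats, triangles MOON rats, grey lines join the 2 samples of a rat and bars are group means; the Kif5c triangles lie at 43.0 to 55.5, far below the MM circles.

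The second question was how axotomised neurons that did not regenerate differed from Traced neurons. None of the 53 motor probe sets passed an adjusted p of 0.05 by limma, where 8 of 18625 did (0.043%). At an unadjusted p under 0.05 there were 2 (3.77%), against 10.3% of all probe sets, and both were lower, as were 7.61% of all. The median log2 fold change was -0.18 over motor probe sets and -0.12 over all, and 15 of 53 lay above 0 (28.3%, against 38.8% of all). Quantile normalization moved this split to 41.5% of motor and 50.9% of all probe sets, and centring each array on its median turned it: the medians became 0.18 and 0.24, and 71.7% of motor and 69.4% of all probe sets lay above 0. No Traced rat is MOON. In the MM rats alone the medians were -0.13 and -0.07, and 16 of 53 motor probe sets lay above 0 (30.2%, against 43.1% of all). The 95% interval lay within a 2-fold change both ways for 29 of 53 (54.7%, against 49.7% of all), so for the others a 2-fold difference was within the interval. These values share the 3 Traced arrays with the comparison of Regenerating and Traced neurons, and the arrays of Non-regenerating neurons with the comparison within rats.

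The comparison of Regenerating with Traced neurons gave 40 of 18625 probe sets past the same threshold (0.215%) and 0 of 53 motor probe sets. At an unadjusted p under 0.05 there were 9 motor probe sets (17%), against 23.6% of all. They were 2 higher (3.77%, against 5.98% of all) and 7 lower (13.2%, against 17.6%). The median log2 fold change was -0.23 over motor probe sets and -0.12 over all, and 12 of 53 lay above 0 (22.6%, against 40.8%). After centring on the array medians, the medians were 0.16 and 0.26 and 71.7% of motor probe sets lay above 0, against 69.2% of all. After quantile normalization, 41.5% of motor and 51% of all probe sets lay above 0. No Traced rat is MOON. In the MM rats alone the medians were -0.19 and -0.06, and 18 of 53 motor probe sets lay above 0 (34%, against 45.4% of all). The 95% interval lay within a 2-fold change both ways for 31 of 53 (58.5%, against 47.4% of all). The median was -0.06 over the brighter 27 motor probe sets and -0.34 over the dimmer 26. Over all probe sets as bright or as dim as these, it was 0.07 and -0.29.

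The motor genes with the smallest p against Traced neurons were a kinesin-3 and a dynein light chain. Kif16b, an endosome kinesin, had signals of 128, 135 and 209 in the Traced rats MM19, MM18 and MM15 at 1394535_at. They were 21.1 to 95.2 (median 65.2) on Regenerating arrays and 22.3 to 141 (median 51.6) on Non-regenerating arrays. All Regenerating arrays lay below the Traced ones, and the Non-regenerating group overlapped through MM17. The log2 fold change was -1.30 (SE 0.37, adjusted p = 0.071 by limma) for Regenerating and -1.26 (SE 0.41, adjusted p = 0.472 by limma) for Non-regenerating against Traced, and neither passed. In the MM rats alone these were -0.95 and -0.92, and the 4 MOON arrays held 21.1 to 25.9. The other 2 tested Kif16b probe sets gave -0.90 and -0.11 for Regenerating against Traced, so they differed in size. Without Traced MM15, the 3 tested probe sets gave -1.10, -0.54 and 0.00. Below the filter and not tested, 1391526_at went the other way, with means of 47.9 (Regenerating), 49.6 (Non-regenerating) and 17.9 (Traced). Its Regenerating signals of 7.4 to 110.3 overlapped the Traced 13.6 to 25.9. Also below the filter, 1396255_at had means of 7.5, 7.1 and 10.4. Kif16b passed under an offset of 64 (-0.87, adjusted p = 0.047 by limma), where 4.61% of all probe sets and this 1 of 53 motor probe sets did.

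Dynlrb2, a light chain of the roadblock family, had signals of 92.1, 99.8 and 153 in the Traced rats MM18, MM19 and MM15. They were 9.50 to 87.4 (median 39.7) on Regenerating and 30.7 to 80.8 (median 37.8) on Non-regenerating arrays. In the MOON rats, which the Traced group lacks, Regenerating signals were 9.5 and 27.3, against 33.5 to 87.4 in the MM rats. Non-regenerating signals were 30.7 and 40.7 in the MOON rats, against 31.1 to 80.8 in the MM rats. Both axotomised groups lay wholly below the Traced group, as did 9.36% of all probe sets for Regenerating and 1.47% for Non-regenerating neurons. The log2 fold changes were -1.16 (SE 0.38, adjusted p = 0.096 by limma) and -1.07 (SE 0.32, adjusted p = 0.472 by limma), which did not pass. Without the 2 arrays that stood apart, they were -0.96 and -0.98. Without Regenerating MM17, Kif16b and Dynlrb2 passed for Regenerating against Traced (-1.40 and -1.30), where 8.08% of all probe sets did. With the 3 prime to 5 prime ratio as a covariate, they were -0.77 and -0.54, with adjusted p of 0.777 and 0.829 by limma. Ciliated cells also use this gene: 5 of 8 ependymal and ciliated markers had a probe set, and their summed signal was 250 to 460 on Traced, 153 to 369 on Regenerating and 158 to 362 on Non-regenerating arrays. The part of those cells in the result was not tested.

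Dctn4, a dynactin subunit, had Traced signals of 296, 315.5 and 354, above the whole Regenerating group at 179 to 250 (median 222). On Non-regenerating arrays it ranged from 138 to 374 (median 207), so that group overlapped. The log2 fold changes were -0.55 (SE 0.21, adjusted p = 0.134 by limma) for Regenerating and -0.54 (SE 0.30) for Non-regenerating against Traced. Centring each array on its median took these to -0.16 and -0.18, and quantile normalization to -0.57 and -0.47. Of the 53 motor probe sets, Kif16b 1394535_at, Dynlrb2 and Dctn4 were the 3 (5.66%) that lay wholly below the Traced arrays in Regenerating neurons. That is below the 9.36% of all probe sets, and 0 lay wholly above, against 2.35%. When limma gave each array a weight by its fit, 4 motor probe sets passed as lower in Non-regenerating than in Traced neurons (7.55%, against 13.1% of all) and 6 in Regenerating neurons (11.3%, against 16.8%), these 3 among them in both.

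The intermediate chain Dync1i1 had signals of 1625, 1748 and 2541 in Traced rats MM18, MM19 and MM15, and 1088 to 2037 (median 1318) on Regenerating arrays. The groups overlapped through MOON265, and the log2 fold change was -0.54 (SE 0.23, adjusted p = 0.174 by limma). Without Traced MM15 it was -0.35, with median centring -0.155 and with quantile normalization -0.605.

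Kif2a and Dynlt1 were the motor genes above 0 with the smallest p. Kif2a had Traced signals of 380, 652.5 and 778 in MM15, MM19 and MM18. Its Regenerating signals were 752.5 to 944.1 in the MM rats, but 1479.4 and 1909.9 in the MOON rats, which the Traced group lacks. The log2 fold change of Regenerating against Traced, MOON rats included, was 0.79 (SE 0.32, adjusted p = 0.152 by limma). It was 0.50 without Traced MM15 and 0.01 with the 3 prime to 5 prime ratio as a covariate. Its probe sets 1371125_at and 1392532_at gave -0.28 and -0.19, so the sign was not shared. Without MM15 they gave -0.27 and -0.85 (SE 0.24, adjusted p = 0.388 by limma). Dynlt1 had Traced signals of 26.7, 167 and 175 in MM15, MM19 and MM18, with MM15 far below the others. The log2 fold change was 0.90 (SE 0.40, adjusted p = 0.190 by limma) for Regenerating against Traced, and 0.19 without MM15. For Non-regenerating against Traced it was 0.48, and -0.22 without the 2 arrays that stood apart.

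The other transport motors were set against Traced neurons with wider intervals. For Kif5a the log2 fold change was 0.18 (95% interval -0.82 to 1.18) in Non-regenerating and 0.38 (95% interval -0.70 to 1.46) in Regenerating neurons, at 1373187_at. Without the 2 arrays that stood apart these turned to -0.16 and -0.13, and the second probe set, 1375875_at, gave -0.53 and -0.12 with all arrays. Kif5b gave 0.16 (95% interval -0.32 to 0.63) and 0.10 (95% interval -0.36 to 0.56), both within a 2-fold change, and 0.09 and -0.04 without those arrays. Klc1 gave -0.10 and -0.20, Kif1c gave 0.38 and 0.49, and Dctn1 gave -0.16 and 0.07. Without those arrays Klc1 turned to 0.12 and 0.12 at 1370886_a_at but gave -0.30 and -0.25 at 1399126_at, Kif1c gave 0.14 and 0.26, and Dctn1 gave -0.08 and 0.21. Dync1li1 gave -0.51 (SE 0.24, adjusted p = 0.472 by limma) and -0.34, and Dync1li2 gave 0.07 and -0.03. Without those arrays Dync1li1 gave -0.40 and -0.17 and Dync1li2 gave 0.13 and 0.05. Dync1h1 gave 0.14 (95% interval -0.58 to 0.85) and 0.34 (95% interval -0.21 to 0.90), and -0.05 and -0.02 without the 2 arrays that stood apart.

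Some members are farther from axonal transport, and none of them passed either. Kif26b, a kinesin of signalling in development, had -0.86, -0.25 and -0.08 at its 3 tested probe sets for Non-regenerating against Traced, and -0.80, -0.31 and -0.24 for Regenerating. At the first of these, 1374246_at, axotomised MOON arrays differed from MM arrays by a log2 difference of -1.03, and no Traced rat is MOON. At 1376617_at and 1390367_at that difference was 0.12 and -0.05. Kif13a, an endosome kinesin, gave 0.48, 0.19 and -0.73 for Non-regenerating against Traced, so its 3 probe sets differed in sign. Kif14 and Kif18a, which act in cell division, gave -0.18 and -0.26, and Kif12 gave -0.40. Without the 2 arrays that stood apart, Kif14, Kif18a and Kif12 gave -0.57, -0.48 and -0.62, and Kif13a gave 0.80, 0.68 and -0.66. Under quantile normalization Kif14 was 0.18. The light chains Dynlt3, Dynlt5 and Dynlt2b gave 0.00, -0.37 and -0.14, and the dynein-2 chains Dync2h1, Dync2i1 and Dync2li1 gave 0.08, -0.11 and -0.18. Without those arrays the light chains gave 0.11, -0.25 and 0.31, and the dynein-2 chains gave -0.02, -0.28 and -0.22. Without them Kif26b gave -0.81, -0.08 and 0.00 for Non-regenerating and -0.63, -0.06 and -0.07 for Regenerating neurons.

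Those 2 arrays that stood apart showed motor transcripts at both ends of the range. The large Dynll2 signal at 1372612_at was 14475 on the array of Non-regenerating MM17 and 14182 on that of Traced MM15, against 2946 to 6648 on the other 15. Klc1 was 4766 and 5328, against 2063 to 3994.5. Dync1h1 was 469 and 547, against 856 to 1474, and Dctn5 was 319 and 326, against 612 to 1097. In all, 12 of 53 motor probe sets (22.6%) were above every other array on both, where 19.4% of all probe sets were. A further 4 (7.55%) were below every other array on both, against 11.6% of all: Dync1h1, Dctn5 and the Kif2a probe sets 1383156_at and 1392532_at.

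**Figure D3:**
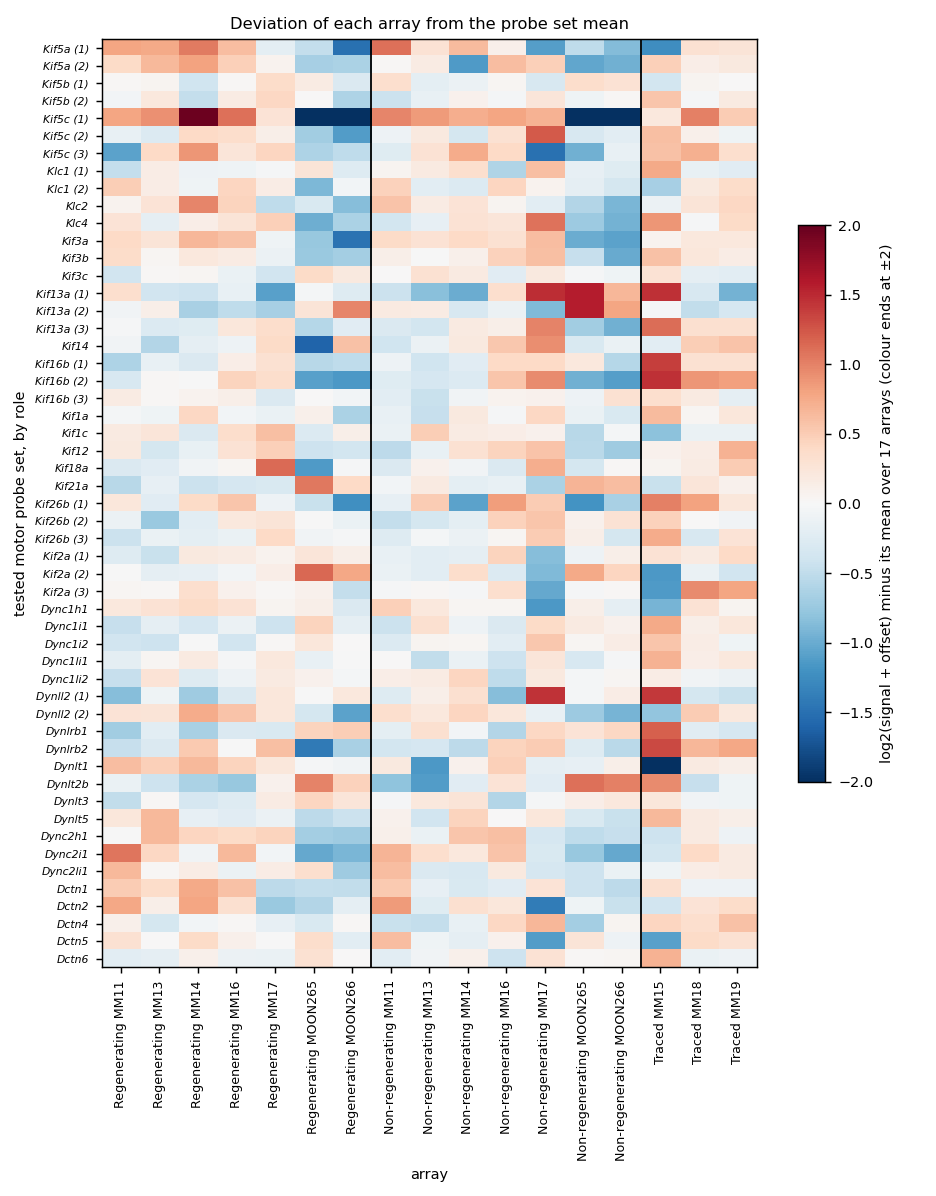
Deviation of each array (columns, by group) from the probe set's mean over 17 arrays for the 53 tested motor probe sets (rows, by role, numbered where a gene has several), in log2 of signal plus 16; red is above, blue is below and colour ends at 2 both ways. The columns of Non-regenerating MM17 and Traced MM15 differ from their neighbours in many rows, and 1 Kif5c row is dark blue in the 4 MOON arrays.

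The widest difference among the motors lay between rats and not between groups. The Kif5c probe set 1380172_at had signals of 43.0 to 55.5 on the 4 arrays of the MOON rats, with a mean of 48.6 ± 6.15 (SD), and 494 to 1622 on the 10 axotomised MM arrays, with a mean of 812 ± 303 (SD). The ranges did not overlap, and the ratio of the means was 16.7. Its log2 difference, MOON minus MM, was -3.62, the 4th lowest of 18625 probe sets, and the median was -0.26 over motor probe sets and -0.32 over all. The 4 arrays come from 2 rats, the difference was noticed in these values and it was not tested. In both kinds of neurons the 2 MOON rats had low values, and the Traced rats, all MM, had 473, 582 and 835.

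The other 2 tested Kif5c probe sets differed less between the prefixes, by -0.76 and -0.62, so the size belonged to 1380172_at. Which parts of the transcript the 3 probe sets read is not given in the sources used here. Klc1, its light chain, differed by -0.10 at 1370886_a_at and by -0.53 at 1399126_at. With the MOON rats included, the log2 fold change of Kif5c against Traced was -0.78 (SE 0.80) for Non-regenerating and -0.63 (SE 0.87) for Regenerating neurons. In the MM rats alone it was 0.23 and 0.43, so the sign turned. Without the 2 arrays that stood apart, MOON rats included, it was -1.11 and -0.81.

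Of the 53 motor probe sets, 8 (15.1%) were lower on every MOON array than on every axotomised MM array, close to the 14.6% of all probe sets. Besides Kif5c these were Kif3a, Dync2i1, Kif16b 1394535_at, Dynll2 1387782_at, Klc4, Kif3b and Dync2h1, with log2 differences of -1.46 to -0.86. Another 4 (7.55%, against 5.34% of all) were higher on every MOON array: Dynlt2b (1.29), Kif13a 1390480_at (1.18), Kif21a (0.95) and Kif2a 1383156_at (0.92). The median signal of all probe sets was 32.8 to 39.0 on MOON arrays and 45.2 to 76.9 on MM arrays, and its part in these differences was not tested. The difference between Regenerating and Non-regenerating neurons was itself compared between the prefixes, and 0 of 53 motor probe sets passed (0.00537% of all did). At an unadjusted p under 0.05 there was 1, Kif3c, where the effect in MM rats minus that in MOON rats was -0.60 (SE 0.27, adjusted p = 0.912 by limma), against 5.11% of all.

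**Figure D4:**
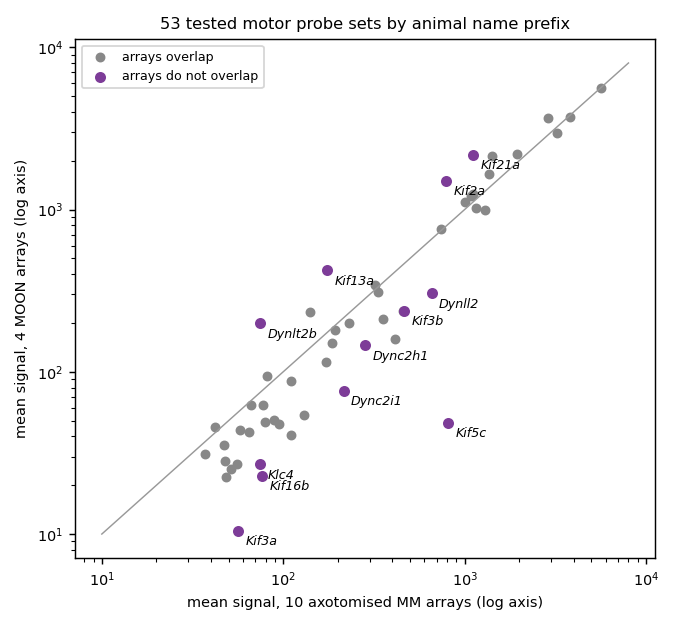
Mean signal of the 53 tested motor probe sets on the 4 MOON arrays (y axis, log scale) against the 10 axotomised MM arrays (x axis, log scale), with the line of equality. Purple points are the 12 probe sets whose arrays do not overlap between the prefixes; Kif5c, at 48.6 against 812, lies farthest from the line.

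The spread within groups was similar to that of other transcripts. The median standard deviation of log2 signal within groups was 0.49 over motor probe sets and 0.46 over all. It was lowest for Kif16b 1395139_at (0.21), Dync1li1 (0.23) and Kif3c (0.25), and highest for Kif5c 1380172_at (1.68). Of the 9 motor genes with more than 1 tested probe set, the probe sets differed in sign for 7 between Regenerating and Non-regenerating neurons, 5 between Non-regenerating and Traced and 6 between Regenerating and Traced.

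The 20 motor probe sets below the filter included the only ones of Kif1b, Kif6, Kif7, Kif18b and Dync2i2 and both of Klc3, so no difference in these 6 genes was tested. Kif1b, a mitochondria and vesicle motor, reached 14.8 on its brightest array. Of 37 core motor genes, 30 were tested, and Dynll1, Dctn3, Kif13b, Kif17 and Kif21b were not analysed here.

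Motors depend on adaptors and regulators, and 35 of a list of 45 such genes were tested. None passed in any of the 3 comparisons, where 0.0161%, 0.043% and 0.215% of all probe sets did. Between Regenerating and Non-regenerating neurons, 1 was higher at an unadjusted p under 0.05, where 4.26% of all probe sets were, and the median was 0.02. It was Cdk5, a kinase that regulates transport, at 0.49 (SE 0.19, adjusted p = 0.678 by limma). The next smallest p values were for Rhot2, a mitochondrial adaptor, at 0.27, Hap1, an adaptor of kinesin and dynein, at -0.30, and Clip1, a protein of microtubule plus ends, at -0.28, which was -0.16 without rat MM17.

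Against Traced neurons, the values of 4 adaptor genes with the smallest p are given for both axotomised groups, which share the Traced arrays. Rab7a, the late endosome GTPase that recruits dynein, gave 0.77 (SE 0.30) in Non-regenerating and 0.95 (SE 0.23, adjusted p = 0.068 by limma) in Regenerating neurons. Hap1 gave -1.13 (SE 0.45) and -1.42 (SE 0.36, adjusted p = 0.068 by limma). Pafah1b1, which encodes the dynein regulator Lis1, gave 0.69 (SE 0.25) and 0.71 (SE 0.24), and Mapre1, which encodes the plus end protein EB1, gave 0.61 (SE 0.24) and 0.63 (SE 0.23). The adjusted p was 0.472 by limma for each in Non-regenerating neurons, so none passed. Without Traced MM15, the values for Regenerating neurons were 0.65 (Rab7a), -1.12 (Hap1), 0.71 (Pafah1b1) and 0.43 (Mapre1). The list medians were -0.07 and -0.13, near the -0.12 of all probe sets in both comparisons.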

How the data were processed

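Signal intensity was measured on 1 Affymetrix rat array per sample. The authors deposited 1 linear signal intensity per probe set and array, made with GCOS per the submitters' processing notes (version and settings not given in the sources used here). Without the lowest and highest 2% of signals, the mean was 200.0 on every array, and the values were used as deposited. RNA was extracted and amplified in 3 rounds per the labels' protocols. Values were analysed as log2(signal + 16), an offset near the 25th percentile of signal, so fold changes of dim genes are understated. Controls (57 probe sets) and 12417 probe sets whose mean log2 signal fell under the 40th percentile were dropped, which left 18625 to test. Probe sets were named from the platform annotation, and all 73 motor probe sets matched RefSeq by Entrez number.

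Each comparison was fitted with lmFit and eBayes (trend) of limma 3.58.1 under R 4.3.3, by code tested on simulated data, and p was adjusted by Benjamini-Hochberg over all 18625. Regenerating and Non-regenerating samples were paired by the rat names in the titles. Deviations from group means, which pool MM and MOON arrays, correlated within rats at r = 0.34 to 0.71. Correlations between rats were not computed, so these values do not test the pairing. The number of arrays limits the precision. Named were core motor genes at their brightest tested probe set, up to 5 motor probe sets per direction with the smallest p in each comparison, and the 4 smallest p of the adaptor list. Others were named after their values were seen. Members and lists were chosen with earlier results of these data known. Alternatives covered normalization, offset, filter, trend, weights, 3 prime bias, prefix, block and left-out arrays. Figures used matplotlib 3.10.9.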

Additional observations from a re-analysis of the deposited data

Results flagged for a closer look

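In 74 groups of 7 arrays, for the named motor probe sets, 4 held an array far from the others for its group's range, and chance gives about 1 in 20 groups. The Dync1h1 signal of Non-regenerating MM17 was 468.9, against 931.5 to 1474 on the other 6 arrays. The Dync1i1 signal of Regenerating MOON265 was 2036.6, against 1088 to 1374. The Dynlt1 signal of Non-regenerating MM13 was 60.2, against 133 to 221. The Dynlt3 signal of Non-regenerating MM16 was 2031.1, against 2995 to 3680.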

How the results depend on the processing

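The count of 0 motor probe sets called between Regenerating and Non-regenerating neurons held in all 21 other settings, and no named motor probe set reversed while called. Among these settings the fit without rat MM17 is entered more than once. With no replicate block the count was 0, the median 0.00, and 1.17% of all probe sets had an unadjusted p under 0.05, against 7.08% with the rats paired. The block as a random term also gave 0 motor calls. Over all probe sets, 3 were called with the rat as a block, 0 with no block and 1 with the block as a random term.

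Array weights, which down-weight atypical arrays, gave 4 motor calls for Non-regenerating against Traced (13.1% of all probe sets were called, 7.55% of motors: Dynlrb2, Dctn4, Kif2a 1392532_at and Kif16b, each lower) and 6 for Regenerating against Traced (16.8% of all, 11.3% of motors: the same 4 with Dync1i1 and Kif14, each lower). With median centring, Dctn4, Dync1i1 and Kif14 came to -0.16, -0.155 and -0.12 for Regenerating against Traced. Kif16b 1394535_at and Dynlrb2 were then -0.91 and -0.77, and none of these passed. An offset of 64 gave 1 call, Kif16b at -0.87 (adjusted p = 0.047 by limma), where 4.61% of all were called. Leaving out 1 array at a time gave 0 to 2 calls for Regenerating against Traced. The 2 were without Regenerating MM17, Kif16b at -1.40 (adjusted p = 0.039 by limma) and Dynlrb2 at -1.30 (adjusted p = 0.048 by limma), where 8.08% of all were called.

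The median over motor probe sets against Traced depended on scaling and also moved with the filter, the model and the arrays used. For Non-regenerating it was 0.18 with median centring, -0.06 with quantile normalization and above the 70th percentile, -0.10 with the 3 prime covariate and -0.12 with an offset of 64, against -0.18. For Regenerating it was -0.23 as reported, -0.029 with quantile normalization, 0.16 with median centring, -0.06 when only signals above the 70th percentile were kept, -0.087 with array weights and -0.04 with 3 prime bias as a covariate, and -0.33 to -0.20 with 1 array left out. With that covariate Kif2a 1383156_at was 0.01 and Dynlt1 0.25. Beyond the construction of each setting, the cause was not tested. The alternative without Non-regenerating MM17 and Traced MM15 was chosen after seeing the data and gave 0 motor calls in all 3 comparisons. In the comparison within rats it left out rat MM17, and for Regenerating against Traced it left out Traced MM15 alone.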
